A study of Mus musculus with 3 samples.

Results

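The genes described here are 10 members of the Notch signalling pathway, chosen as the rows of the deposited count table with the symbols Notch1, Notch2, Notch3, Jag1, Jag2, Dll1, Hes1, Hey1, Hey2 and Heyl. All 10 were found among 20937 listed genes and all 10 passed the filter on low counts. RNA of the whole incisor enamel organ, the epithelium that makes tooth enamel, was sequenced in 3 libraries from male mice aged 4 weeks, with 1 library per genotype. Stim1 cKO was Stim1 fl/fl with AmelX-iCre, Stim1 HT was Stim1 fl/wt with AmelX-iCre, and Stim1 Ctrl was Stim1 fl/fl without Cre. All 3 genotypes thus carried at least 1 floxed Stim1 allele, and both Cre-positive genotypes carried the transgene that the Cre-negative library lacked. AmelX-iCre is driven by the amelogenin promoter, which is active in ameloblasts, so the deletion was aimed at ameloblasts and not at the stratum intermedium beside them. The number of animals behind each library was not given in the sources used here.

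Of the 10 Notch genes, Heyl differed most between genotypes, with 19.5 CPM (counts per gene scaled to a common library size with TMM factors) in Stim1 cKO against 47.9 and 47.5 CPM in the control libraries, a level 2.44-fold lower in the fitted comparison. Hes1, another target gene of the pathway, was at 96.5 CPM in Stim1 cKO against 57.5 and 45.7 CPM. The receptors Notch1, Notch2 and Notch3 and the ligands Jag2 and Dll1 were below both controls, as was the target Hey2 by a small margin, and Jag1 and Hey1 lay between them. None of the 10 genes passed the thresholds of adjusted p under 0.01 and over 2-fold in the edgeR test, which called 14 of the 18702 genes tested (0.0749%).

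Notch receptors are single-pass membrane proteins that are activated by Jagged or Delta-like ligands on a neighbouring cell. Ligand binding leads to cleavage of the receptor by ADAM proteases and then by gamma-secretase, and the freed intracellular domain joins RBPJ and Mastermind-like proteins to turn on genes of the Hes and Hey families. The stratum intermedium is the epithelial layer that lies against the ameloblasts in the enamel organ, and Notch1 is a known marker of it. Notch signalling is also well known in endothelial cells and in the mural cells of vessels, where Notch3 and Heyl are typical members. In RNA of a whole tissue, fewer cells of a type and less RNA per cell cannot be told apart.

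The 4 target genes encode repressors with a basic helix-loop-helix domain. The last 60 coding bases before the stop codon are shown for Hes1, Hey2 and Heyl, since the results turn on Hes1 and Heyl and the stretch tells these family members apart. Capitals mark the last in-frame TGG codon and the 3 codons before it, which in Hes1 encode the tetrapeptide that binds Groucho/TLE corepressors (GENCODE M21, GRCm38, coding strand).
Hes1 (chr16:30067366-30067425, +): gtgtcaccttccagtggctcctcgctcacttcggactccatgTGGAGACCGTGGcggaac
Hey2 (chr10:30833739-30833798, -): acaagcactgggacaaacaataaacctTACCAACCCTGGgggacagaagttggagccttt
Heyl (chr4:123246568-123246627, +): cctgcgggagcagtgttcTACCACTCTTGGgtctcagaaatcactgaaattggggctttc
Of the 12 capital bases, 7 in Hey2 and 5 in Heyl equal those of Hes1 at the same place. The 3 bases of the TGG codon are among them and are equal by the way the stretch was chosen. The capitals are followed by 2 codons in Hes1, 7 in Hey2 and 10 in Heyl. The coding sequences hold 846 bases in Hes1, 1017 in Hey2 and 978 in Heyl, without the stop codon.

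RefSeq promoters (GRCm38.p6, 250 bases before to 50 after the start) were at hand for 7 of the 10 members, all except Hes1, Hey1 and Heyl. They were searched on both strands for GTGGGAA (reverse complement TTCCCAC), a core sequence recognised by RBPJ. Hey2 was the 1 member of these 7 that held it, with 2 matches, whereas 6.38% of all 32851 promoters of this length held at least 1 match and 0.256% held 2 or more. The upstream match begins 207 bases before the RefSeq start and the other 4 bases before it, both shown in capitals on the strand of the gene.
Hey2 (chr10:30842802-30843033, -): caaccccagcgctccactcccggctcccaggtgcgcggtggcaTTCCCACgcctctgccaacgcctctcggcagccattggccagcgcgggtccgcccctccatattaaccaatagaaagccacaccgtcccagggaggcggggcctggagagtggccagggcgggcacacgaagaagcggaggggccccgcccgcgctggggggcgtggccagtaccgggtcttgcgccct
Hey2 (chr10:30842771-30842797, -): gggctgcagcGTGGGAAagaacctcca
A match is a description of the letters only. Hey2 was also the member with the lowest level per kilobase of exon in every library, as given below for all members.

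The libraries held between 20216507 and 28265960 counts. Stim1, the targeted gene (chr7:102267806-102437319), had 1763 counts in Stim1 cKO, against 2536 for Stim1 HT and 4797 for Stim1 Ctrl, or 72.8, 129 and 186 CPM. Its fitted log2 fold change in Stim1 cKO was -1.11 ± 0.35 (SE), with an edgeR adjusted p of 0.106, and the counts per gene do not say which exons they came from. The library labelled Stim1 cKO also stood apart in genes of other tissues: 4 of 9 retina and lens markers were listed, with a summed level of 789 CPM in Stim1 cKO against 1.52 and 1.63 CPM in the controls. The sum of 5 salivary and lacrimal gland markers was 1100 CPM against 35.2 and 19.6 CPM. All 5 were above both controls, but most of the Stim1 cKO sum was Obp2a, at 939, 2.28 and 0.0389 CPM. Bhlha15 was only slightly above Stim1 Ctrl, at 10.1, 4.62 and 9.25 CPM. As Stim1 cKO has 1 library, no value could be given without it, and the part of these other tissues in the results below was not tested. With no second library of any genotype, the only spread available was that from Stim1 HT to Stim1 Ctrl, and p-values rest on 1 residual degree of freedom.

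The label of the deposited samples gives ameloblasts as the cell type, and the stratum intermedium was checked by 4 markers. Alpl, the alkaline phosphatase of this layer, was at 188 CPM in Stim1 cKO, against 313 for Stim1 HT and 368 for Stim1 Ctrl. Thbd was at 33.1, 56.7 and 71.2 CPM, and both genes were therefore below both controls in Stim1 cKO. Cldn10, a claudin, was at 28.3, 11.4 and 11.1 CPM, above both controls. All 4 markers were listed, 2 of them below and 2 above both controls, with a median log2 fold change of 0.0084. Gnrh1, the other marker above both and named after its values were seen, was only slightly above Stim1 HT. Its levels were 6.07, 5.89 and 0.777 CPM. The median fell between the log2 fold changes of Alpl (-0.86) and Gnrh1 (0.87). Whether the Notch transcripts came from this layer was not tested.

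Receptors. The 3 receptors were below both controls in Stim1 cKO, and in each of them Stim1 HT was below Stim1 Ctrl. Their summed level was 186 CPM in Stim1 cKO, against 241 for Stim1 HT and 340 for Stim1 Ctrl, and the median of their log2 fold changes was -0.68, against -0.01 over all genes tested. No receptor passed the test at an unadjusted p under 0.05, which 31.9% of all genes did.

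Notch1 (chr2:26457903-26516663, minus strand), the receptor that marks the stratum intermedium, had 1251 counts in Stim1 cKO, against 1283 for Stim1 HT and 2139 for Stim1 Ctrl, or 51.7, 65.1 and 83.1 CPM. Its level was lowest in Stim1 cKO, and the gap between the controls (a log2 ratio of -0.35 between Stim1 HT and Stim1 Ctrl) was about as wide as the gap from Stim1 cKO to Stim1 HT (-0.33). The fitted log2 fold change was -0.52 ± 0.28 (SE), with an edgeR adjusted p of 0.264.

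Notch2 (chr3:98013527-98150361, plus strand), a receptor found in many tissues, had 1849, 2089 and 3549 counts in Stim1 cKO, Stim1 HT and Stim1 Ctrl, or 76.4, 106 and 138 CPM. The same descending order from Stim1 Ctrl to Stim1 cKO was seen, with a log2 fold change of -0.68 ± 0.30 (SE) and an edgeR adjusted p of 0.198.

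Notch3 (chr17:32120820-32166852, minus strand), the receptor typical of vascular mural cells, had 1401, 1383 and 3051 counts in the same order of genotypes, or 57.9, 70.2 and 119 CPM. Stim1 cKO and Stim1 HT were close together and Stim1 Ctrl stood above them. The log2 fold change was -0.71 ± 0.39 (SE), with an edgeR adjusted p of 0.272. It was -1.03 against Stim1 Ctrl alone and -0.28 against Stim1 HT alone, so its size rested on which control was used. The choice also moved Notch1 from -0.69 to -0.33 and Notch2 from -0.85 to -0.47. Gm17276 on the opposite strand overlaps 6.03% of the exon length of Notch3 and had 7, 5 and 6 counts.

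Shares of counts depend on gene length and were compared between libraries only. Of the receptor counts Notch2 held 41.1% in Stim1 cKO, against 43.9% for Stim1 HT and 40.6% for Stim1 Ctrl. Notch3 took 31.1%, 29.1% and 34.9%, and Notch1 27.8%, 27.0% and 24.5%. The mix of receptors thus differed by a few percentage points while their sum differed more.

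**Figure D1:**
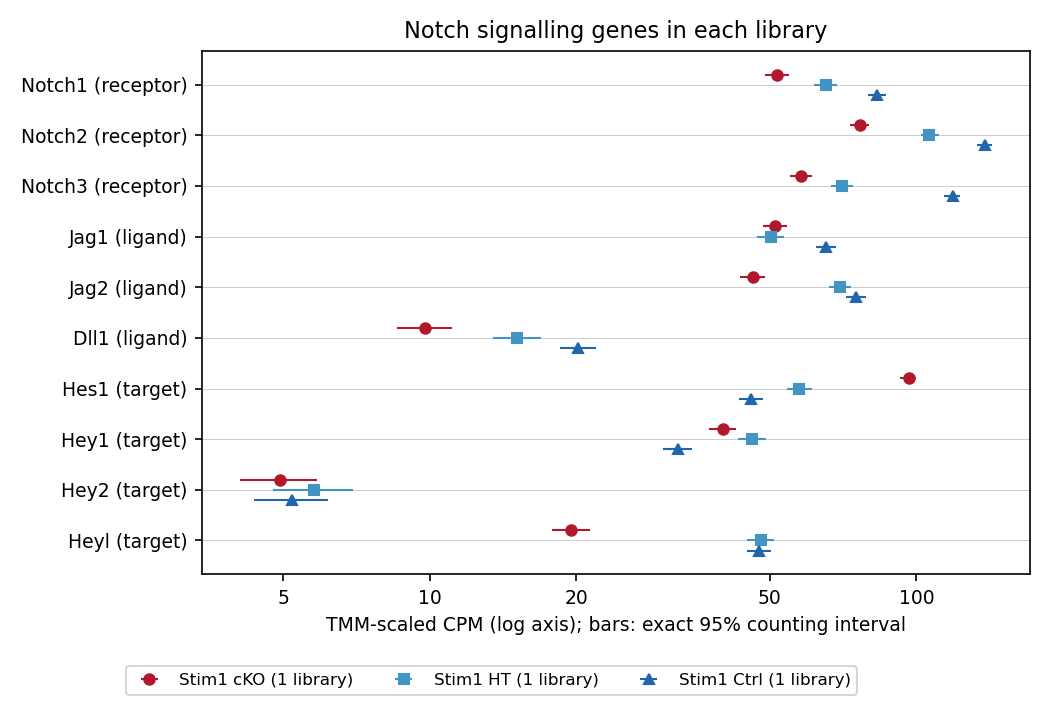
TMM-scaled CPM (log axis) of the 10 Notch genes in the Stim1 cKO, Stim1 HT and Stim1 Ctrl libraries, 1 point per library, with exact 95% counting intervals as bars, which cover counting error only. Heyl was at 19.5 CPM in Stim1 cKO and at 47.9 and 47.5 CPM in the controls, and Hes1 was at 96.5 CPM in Stim1 cKO, above both controls.

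Ligands. Jag2 and Dll1 were below both controls in Stim1 cKO and Jag1 lay between them. The summed level of the 3 ligands was 107 CPM in Stim1 cKO, against 135 for Stim1 HT and 161 for Stim1 Ctrl, with a median log2 fold change of -0.65.

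Jag2 (chr12:112907819-112929776, minus strand), a Jagged ligand of the inner enamel epithelium, had 1115 counts in Stim1 cKO, against 1374 for Stim1 HT and 1934 for Stim1 Ctrl, or 46.1, 69.8 and 75.2 CPM. The controls lay close together (log2 ratio -0.11) and Stim1 cKO was below both. The log2 fold change was -0.65 ± 0.25 (SE), and the edgeR p was 0.047 before adjustment and 0.152 after it.

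Dll1 (chr17:15367354-15376872, minus strand), a Delta-like ligand, had 237, 298 and 520 counts, or 9.79, 15.1 and 20.2 CPM. It descended from Stim1 Ctrl through Stim1 HT to Stim1 cKO, with a log2 fold change of -0.85 ± 0.37 (SE) and an edgeR adjusted p of 0.191. The gene A930024N18Rik on the opposite strand overlaps 20.5% of its exon length and had 43, 28 and 36 counts, and the strand setting of the counting was not given in the sources used here.

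Jag1 (chr2:137081456-137116644, minus strand), the other Jagged ligand, had 1240, 989 and 1680 counts, or 51.2, 50.2 and 65.3 CPM. Stim1 cKO and Stim1 HT were nearly equal and below Stim1 Ctrl. The log2 fold change was -0.17 ± 0.28 (SE), with an edgeR adjusted p of 0.696, and it turned to 0.09 when libraries were scaled by their total counts.

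The proportion of Jag1 to Jag2 also differed between libraries. Jag1 made up 52.7% of the counts of both genes in Stim1 cKO (95% Wilson interval 50.6 to 54.7), 41.9% for Stim1 HT (39.9 to 43.9) and 46.5% for Stim1 Ctrl (44.9 to 48.1). The share was highest in Stim1 cKO and the controls also differed from each other, and these intervals cover counting error only.

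Target genes. The 4 target genes stood on different sides of the controls: Hes1 was above both controls, Heyl and Hey2 were below both, and Hey1 lay between them. Their summed level was 161 CPM in Stim1 cKO, against 157 for Stim1 HT and 131 for Stim1 Ctrl, so the sum hid the opposite differences of Hes1 and Heyl.

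Heyl (chr4:123233556-123249875, plus strand), a Hey family repressor, had 473 counts in Stim1 cKO, against 943 for Stim1 HT and 1222 for Stim1 Ctrl, or 19.5, 47.9 and 47.5 CPM. The controls were nearly equal, with a log2 ratio of 0.012, and Stim1 cKO stood below both by -1.29 and -1.28. The fitted log2 fold change was -1.29 ± 0.25 (SE), and the edgeR p was 0.00309 before adjustment and 0.0414 after it. At an adjusted p under 0.05 Heyl was the 1 member called, on the lower side, where 2.88% of all genes were called, with 6.8% on the higher side and 9.68% in all. DESeq2 gave an adjusted p of 0.00648, which passed the threshold of 0.01, and over all the settings with a test the adjusted p of Heyl ranged from 0.00648 to 0.0642. DESeq2 called 4.71% of all genes lower and 5.92% higher, 10.6% in all.

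Hes1 (chr16:30064384-30067796, plus strand), the best known target of the pathway, had 2335, 1133 and 1177 counts in Stim1 cKO, Stim1 HT and Stim1 Ctrl, or 96.5, 57.5 and 45.7 CPM. Stim1 cKO was above both controls and Stim1 HT was above Stim1 Ctrl. The log2 fold change was 0.90 ± 0.27 (SE), and the edgeR p was 0.0184 before adjustment and 0.0933 after it. It was the 1 member above both controls, as 43.6% of all genes were.

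Hey1 (chr3:8663359-8667256, minus strand), a Hey family repressor, had 969, 906 and 833 counts, or 40.0, 46.0 and 32.4 CPM. Stim1 cKO lay between the controls, the log2 fold change was 0.032 ± 0.30 (SE), and the edgeR adjusted p was 0.951.

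Hey2 (chr10:30832359-30842801, minus strand), a further Hey family repressor, had 119, 114 and 134 counts, or 4.92, 5.79 and 5.21 CPM. The 3 values lay within each other's counting intervals, the log2 fold change was -0.16 ± 0.48 (SE) and the edgeR adjusted p was 0.838. It turned to 0.094 when libraries were scaled by their total counts.

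The proportion of Hes1 to Heyl does not depend on the scaling between libraries. These genes had the highest and the lowest log2 fold change of the members (0.90 and -1.29), so a different share in Stim1 cKO follows from the choice of pair. The intervals cover counting error only. Hes1 made up 83.2% of the counts of both genes in Stim1 cKO (95% Wilson interval 81.7 to 84.5), 54.6% for Stim1 HT (52.4 to 56.7) and 49.1% for Stim1 Ctrl (47.1 to 51.1). The ratio of Hes1 to Heyl counts was 4.94 in Stim1 cKO and 1.2 and 0.963 in the controls. Among all 4 targets Heyl held 12.1% of the counts in Stim1 cKO, against 30.5% for Stim1 HT and 36.3% for Stim1 Ctrl, whereas Hey1 held 24.9%, 29.3% and 24.7%. The control libraries were closer to each other than to Stim1 cKO in the share of Heyl and of Hes1, but not in that of Hey1.

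**Figure D2:**
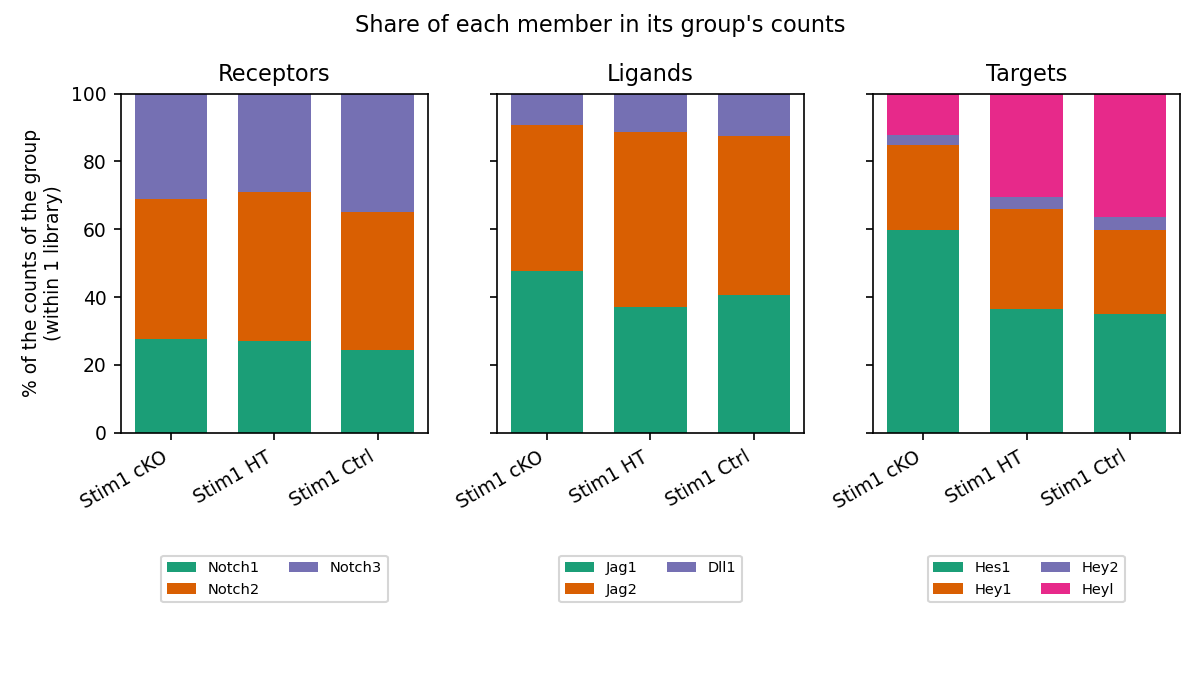
Share (%) of each gene in the counts of its group within a library, for 3 receptors, 3 ligands and 4 targets, 1 bar per library. Hes1 held 59.9% of the target counts in Stim1 cKO against 36.6% for Stim1 HT and 35% for Stim1 Ctrl, and Notch2 held between 40.6% and 43.9% of the receptor counts.

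Of the 10 members, 7 were below both controls, compared with 42.1% of all genes, and 8 had a negative log2 fold change. Their median log2 fold change was -0.59 against -0.01 over all genes. Only 2 members lay above the median of all genes, Hes1 and Hey1, in the edgeR fit and under each alternative scaling, tool or filter run. Counted by direction, 2 members had an unadjusted p under 0.05 on the lower side (Jag2 and Heyl; 13.4% of all genes) and 1 on the higher side (Hes1; 18.5% of all genes).

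The controls were not the same for these genes. Stim1 HT was below Stim1 Ctrl in 6 of 10 members, and above it in 4, compared with 49.7% and 50.3% of all genes, and the median log2 ratio was -0.23. No member differed over 2-fold between the controls, whereas 13.5% of all genes did, and the widest gap was that of Notch3 at -0.76. There were 5 members, the 3 receptors with Dll1 and Jag2, that descended from Stim1 Ctrl through Stim1 HT to Stim1 cKO. The gap between the controls was the smallest of the 3 gaps in 5 of 10 members, compared with 59.0% of all genes. With 1 library each, Stim1 HT against Stim1 Ctrl has no test.

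**Figure D3:**
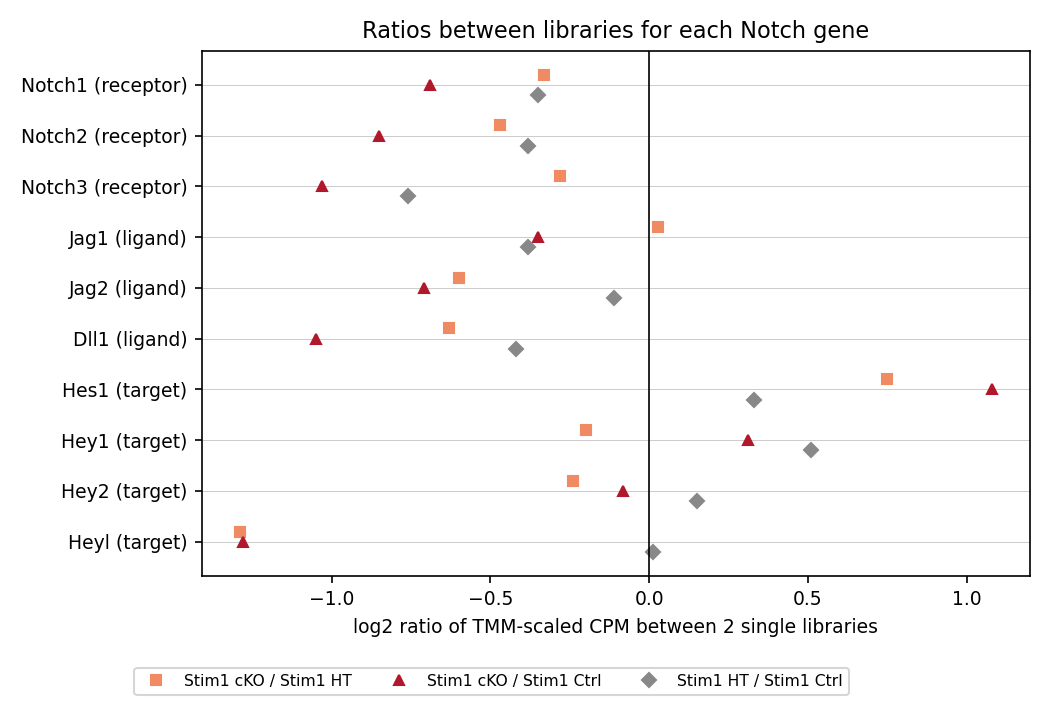
Log2 ratios of TMM-scaled CPM between single libraries for the 10 Notch genes, with 1 symbol per pair of libraries and no error bars because each genotype has 1 library. For Heyl both ratios of Stim1 cKO lie near -1.28 while that of Stim1 HT to Stim1 Ctrl is 0.012, and for Notch3 the ratio between the controls is -0.76.

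Levels of different genes were compared per kilobase of exon, on TMM-scaled CPM. Hes1 had the highest level of the 10 members in each library, at 47.4 CPM per kilobase in Stim1 cKO, against 28.2 for Stim1 HT and 22.5 for Stim1 Ctrl. Hey2 had the lowest, at 1.07, 1.26 and 1.13, and Dll1 the next lowest, at 2.32, 3.59 and 4.79. In Stim1 Ctrl the order below Hes1 was Notch3 at 14.7, Notch2 at 12.8, Jag1 at 11.2, Jag2 at 10.8, Hey1 at 9.91, Heyl at 9.29 and Notch1 at 5.84. The counting intervals of Jag1 and Jag2, of Jag2 and Hey1, and of Hey1 and Heyl overlapped there, so these neighbours were not told apart.

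In Stim1 HT the order below Hes1 was Hey1 at 14.1, Jag2 at 10, Notch2 at 9.84, Heyl at 9.36, Notch3 at 8.68, Jag1 at 8.62 and Notch1 at 4.58, with overlapping intervals between each pair of neighbours from Jag2 to Jag1. In Stim1 cKO it was Hey1 at 12.3, Jag1 at 8.79, Notch3 at 7.16, Notch2 at 7.08, Jag2 at 6.61, Heyl at 3.82 and Notch1 at 3.63, with overlaps between Notch3 and Notch2, Notch2 and Jag2, and Heyl and Notch1. The order depends on the length used. By coding length Heyl was second in Stim1 Ctrl, at 48.6 CPM per kilobase against 54.1 for Hes1, and Dll1 rather than Hey2 was last in Stim1 cKO. Hes1 stayed first in each library by exon length, coding length and longest transcript.

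The other genes of the pathway were taken from a list of 46 symbols, of which 45 were listed and 44 tested. Of the tested genes 22 were below both controls in Stim1 cKO, 15 above both and 7 between them, compared with 42.1%, 43.6% and 14.3% of all genes, and the median log2 fold change was -0.18. None passed the thresholds in edgeR. At an unadjusted p under 0.05 there were 6 higher and 8 lower, or 14 of 44, where 31.9% of all genes were called. At an adjusted p under 0.05 there were 4 higher (Psen2, Maml2, Fbxw7 and Hes5) and 2 lower (Notch4 and Dlk1), where 9.68% of all genes were called. Hes5 is in both higher counts but passed the filter on low counts only through Stim1 cKO, where it was high. DESeq2, which called 10.6% of all genes, called 2 higher (Maml2 and Fbxw7) and 3 lower (Notch4, Dlk1 and Aph1a).

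Among the receptor and ligands outside the members, 3 of 5 were below both controls. Dlk1, a Delta-like protein that lacks the domain with which activating ligands bind Notch, had 3616 counts in Stim1 cKO, against 20006 for Stim1 HT and 39495 for Stim1 Ctrl, or 149, 1020 and 1530 CPM. It was far below both controls, with a log2 fold change of -3.09 ± 0.48 (SE) and an edgeR adjusted p of 0.0295. Notch4, the receptor of endothelial cells, had 203, 448 and 677 counts, or 8.39, 22.7 and 26.3 CPM, with a log2 fold change of -1.55 ± 0.32 (SE) and an edgeR adjusted p of 0.0481. Dll4, a ligand of endothelial cells, was at 6.9, 14.0 and 13.3 CPM, with an edgeR adjusted p of 0.157. All 3 were lowest in Stim1 cKO.

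Of 10 genes of receptor cleavage, 7 were below both controls and 3 above. Psen2, a catalytic subunit of gamma-secretase, was at 46.3 CPM in Stim1 cKO, against 21.6 for Stim1 HT and 19.0 for Stim1 Ctrl, with a log2 fold change of 1.19 ± 0.24 (SE) and an edgeR adjusted p of 0.0461. Aph1a, another subunit of the same enzyme, was at 35.3, 81.0 and 79.3 CPM, with a log2 fold change of -1.18 ± 0.26 (SE) and an edgeR adjusted p of 0.0519. These subunits stood on opposite sides of the controls, and in both the controls were close together. Car14 on the opposite strand overlaps 12.9% of the exon length of Aph1a and had 187, 307 and 473 counts. With the strand setting not given, its part in the Aph1a counts was not tested. Of 5 genes of Notch glycosylation 3 were below both controls, among them Pofut1, the O-fucosyltransferase of the receptor, at 39.4, 61.7 and 83.0 CPM, with a log2 fold change of -0.88 and an unadjusted edgeR p of 0.0324. Rfng, a Fringe glycosyltransferase named after its values were seen, stood on the other side at 48.1, 27.0 and 25.4 CPM, with a log2 fold change of 0.88, an unadjusted edgeR p of 0.0115 and an adjusted p of 0.0734. Of 4 genes of ligand endocytosis none had an unadjusted p under 0.05.

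The nuclear complex was mixed in the same way. Maml2, a Mastermind-like coactivator, had 1376, 400 and 536 counts, or 56.8, 20.3 and 20.8 CPM, with a log2 fold change of 1.47 ± 0.22 (SE) and an edgeR adjusted p of 0.0281. Maml1, its paralog, was at 23.5, 39.9 and 54.8 CPM, with a log2 fold change of -1.01 ± 0.30 (SE) and an edgeR adjusted p of 0.097. Of the 6 genes of this group 3 were above both controls and 2 below.

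Among the 10 inhibitors and corepressors 4 were above both controls and 4 below. Fbxw7, the ubiquitin ligase subunit that marks the Notch intracellular domain for degradation, had 3813, 1025 and 1434 counts, or 158, 52.0 and 55.7 CPM, with a log2 fold change of 1.55 ± 0.24 (SE) and an edgeR adjusted p of 0.0295. Dtx1, a Deltex ubiquitin ligase, was at 23.9, 10.6 and 5.71 CPM, with an edgeR adjusted p of 0.0945. Of the 4 other targets tested 2 were above both controls and 1 below. Both of the higher genes passed the filter on low counts through Stim1 cKO alone. Their place above the controls was thus tied to being tested, and nothing is drawn from it. Hes5, a Hes family repressor, chosen after its values were seen, had 81 counts in Stim1 cKO, against 6 for Stim1 HT and 3 for Stim1 Ctrl. Its CPM was 11.0 times that of Stim1 HT (exact 95% counting interval 4.83 to 30.8) and 28.7 times that of Stim1 Ctrl (9.48 to 142), with an edgeR adjusted p of 0.0394. As the filter kept Hes5 only through the library where it was high, this p-value is not separate from that choice. The low control counts make the size of the difference uncertain. Gm20421, with 1, 1 and 2 counts, overlaps 31.8% of the exon length of Hes5. Retina and lens markers, of a tissue whose glia are known to express Hes5, were likewise above both controls in Stim1 cKO, and their part in the level of Hes5 was not tested.

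**Figure D4:**
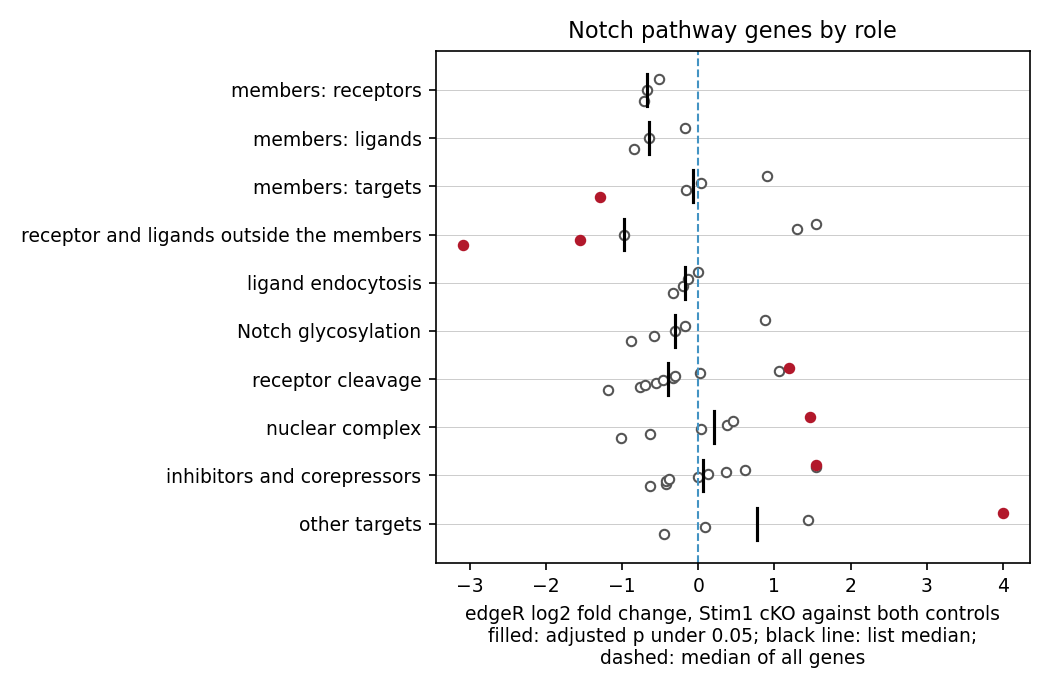
Fitted edgeR log2 fold changes of Stim1 cKO against both controls for the members and the other pathway genes by role, 1 point per gene, with a black line at the list median and a dashed line at the median of all genes. Filled points had an adjusted p under 0.05, which among the members was Heyl (-1.29), and each of the larger groups has genes on both sides of the dashed line.

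Endothelial and mural cells are among the cell types in which these genes are known to act. Of 10 endothelial markers 9 were below both controls, with a median log2 fold change of -0.88 and a summed level of 348 CPM in Stim1 cKO against 691 and 714 CPM. Pecam1 was at 65.8, 139 and 140 CPM, and Cdh5, the endothelial cadherin, at 34.3, 138 and 154 CPM. Cdh5 had a log2 fold change of -2.09. It was the 1 endothelial marker with an edgeR adjusted p under 0.05, where 9.68% of all genes were called, 2.88% on the lower side. DESeq2 called 2 of the 10 lower, Pecam1 and Cdh5, where it called 4.71% of all genes lower. Both genes had controls close together and a lower Stim1 cKO, as did Heyl, Jag2, Notch4 and Dll4. Aph1a and Gapdh, which are not on the endothelial list, also had this pattern. Of all genes 42.1% were below both controls, and in 59.0% the gap between the controls was the smallest of the 3 gaps. In the endothelial list that gap was the smallest of the 3 gaps in 9 of 10 markers, the same 9 that were below both controls. Egfl7, the other marker, lay between the controls at 51.2, 56.9 and 35 CPM. Tek was at 20.3, 30.6 and 44.5 CPM and Erg at 11.9, 17.8 and 25.7 CPM. Both are among the 9, but with controls nearly as far apart as Stim1 cKO was from Stim1 HT. Egfl7, Tek and Erg were picked with their levels already known. The part of these cells in the levels of the Notch genes was not tested.

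Of 9 pericyte and smooth muscle markers 5 were below both controls and 4 between, with a median of -0.51 and a summed level of 783, 958 and 1290 CPM. Acta2, smooth muscle actin, was at 189, 270 and 407 CPM, descending in the order in which Notch3 did, and Rgs5 was at 225, 266 and 217 CPM. All 6 fibroblast markers were below both controls, at 25200, 32000 and 51200 CPM in sum. Muscle satellite cell and myoblast markers, of a lineage in which Notch is active, were at 33.8, 151 and 167 CPM in sum. Of these 6 markers 5 were below both controls, and the median of the list was -2.73. Pax7, named after its values were seen, was above both controls, at 11.5, 8.12 and 9.87 CPM. Proliferation markers were at 217, 442 and 616 CPM, with 5 of 5 below both. Their part in the results was not tested.

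The enamel epithelium was not lower as a whole. All 5 of its markers were above both controls, with a summed level of 2810 CPM in Stim1 cKO against 1730 and 1610 CPM. Krt5, the most abundant of them, was at 1310, 893 and 949 CPM, with a log2 fold change of 0.51, and Krt14 at 1190, 573 and 464 CPM, with the largest log2 fold change of the 5, 1.20. The 4 secretory-stage ameloblast markers were below both controls, at 3580, 31200 and 23100 CPM in sum, and Amelx, the main enamel matrix gene, was at 2070, 20000 and 14100 CPM. Of 4 maturation-stage markers 3 were above both controls and 1 between, at 895, 379 and 166 CPM, led by Odam at 694, 196 and 75.1 CPM. Hes1 had the same order of the libraries as this sum. The sums of the enamel epithelium and of the salivary and lacrimal gland markers had it too, the latter mostly Obp2a in Stim1 cKO. The part of these cells in the level of Hes1 was not tested.

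**Figure D5:**
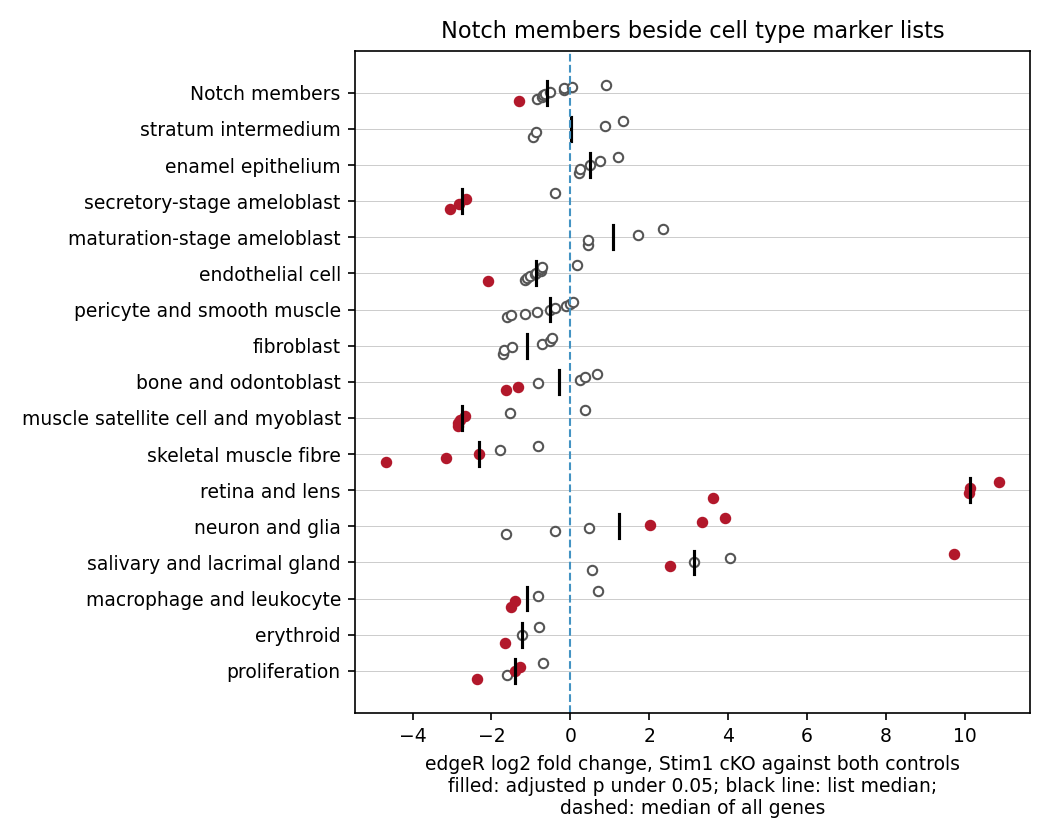
Fitted edgeR log2 fold changes of Stim1 cKO against both controls for the 10 Notch genes and for the cell type marker lists, 1 point per gene, filled at an adjusted p under 0.05, with a black line at each list median and a dashed line at the median of all genes. The median of the Notch genes was -0.59, between that of the endothelial list (-0.88) and that of the enamel epithelium list (0.51), and the retina and lens list lies far to the right.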

How the data were processed

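RNAseq of the whole incisor enamel organ was analysed in 3 libraries, 1 per genotype. The authors trimmed the read pairs, discarded those of low quality and mapped the rest with STAR. The deposited values are raw read counts by gene symbol, not normalized. FastQC, STAR and DESeq2 are named in the submitters' processing notes. The versions, genome build, annotation, counting tool and strand setting are not given in the sources used here. The methods name a directional NEBNext kit and the labels a SMARTER kit. Every listed gene has 1 count or more in each library, and genes at 0 are not analysed here. Totals were 21496136 (Stim1 cKO), 20216507 (Stim1 HT) and 28265960 (Stim1 Ctrl), and 3 counts correspond to 0.124, 0.152 and 0.117 CPM. Dates stand in place of the symbol in 25 rows (0.154% of counts).

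Stim1 cKO was tested against the grouped controls with edgeR 4.0.16 in R 4.3.3 (TMM, filterByExpr, quasi-likelihood test, Benjamini-Hochberg adjustment over 18702 genes). The common dispersion was 0.106, with 1 residual and 4.15 prior degrees of freedom. Calls needed an adjusted p under 0.01 and over 2-fold. SEs were derived from the quasi-likelihood statistic. Alternatives were DESeq2 1.42.0, other scalings, filters and thresholds, and leaving out either control. Wilson and exact 95% intervals cover counting error only. Exon lengths and positions came from GENCODE M21 (GRCm38), which held 20712 of 20935 symbols, and promoters from RefSeq (GRCm38.p6). Lengths and positions are those of GRCm38, whichever build the counts were made on. Python 3.11.15 with pandas 2.3.3 and scipy 1.17.1 was used.

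The members and lists were chosen with earlier results of these data known. Named genes were the 10 members, Stim1, the 10 other pathway genes with the largest absolute log2 fold change among those with an unadjusted p under 0.05 and a mean of at least 50 counts, up to 3 genes per marker list with the highest mean CPM, and the 3 genes nearest to Heyl. Outside this rule, Hes5, Rfng, Egfl7, Tek, Erg, Bhlha15, Pax7 and Gnrh1 were named once their values were known. The coding end of 1 target gene is not reported here.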

Additional observations from a re-analysis of the deposited data

How the results depend on the processing

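The direction of Notch1, Notch2, Notch3, Jag2, Dll1, Hes1 and Heyl was the same under every alternative run. Jag1 turned to a log2 fold change of 0.09 and Hey2 to 0.094 with scaling by library size, and Hey1 to -0.0011 without the filter on low counts. The median of the 10 Notch genes, -0.59, was -0.46 with upper-quartile scaling, -0.33 with library size, -0.48 where the mean count had to reach 50, and from -0.70 (without Stim1 HT) to -0.31 (without Stim1 Ctrl) with 1 control left out. The median of all genes moved to 0.12 with upper-quartile scaling and 0.25 with library size, and 8 members lay below it and 2 above it under every setting. Without Stim1 Ctrl, Jag1 (0.029) took the place of Hey1 (-0.20) above it. DESeq2 called 1 member and an adjusted p under 0.05 called 1, which was Heyl in both, against 0 in edgeR. The other pathway genes had a median of 0.067 with library size scaling, and 5 were called by DESeq2 and 6 at an adjusted p under 0.05, against 0. Over all genes 14 were called (14 higher, 0 lower), and 50 with RLE scaling, 138 with upper-quartile scaling (125 higher, 13 lower), 6 with library size, 1987 with DESeq2 (1107 higher, 880 lower), 907 without the filter (687 higher, 220 lower), 6 where the mean count had to reach 50 and 1811 at an adjusted p under 0.05. The cause of these differences was not tested. Counts of calls without 1 control library were not run, since no residual degree of freedom is left. No paired analysis was possible because each genotype has 1 library. Depth limited Hey2, with 114 to 134 counts, the most among the members.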

Other observations

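The genes whose pattern over the 3 libraries was nearest to that of Heyl, by the distance of the log2 ratios of Stim1 cKO and Stim1 HT to Stim1 Ctrl, were Sucla2 at a distance of 0.0171, Gapdh at 0.0175 and Spry4 at 0.0182. Gapdh, a glycolytic enzyme often used as a reference gene, was at 623 CPM in Stim1 cKO and 1510 CPM in each control. Sucla2, a mitochondrial enzyme, was at 89.9, 218 and 219 CPM, and Spry4, an inhibitor of growth factor signalling, at 9.29, 22.5 and 22.3 CPM. Within a distance of 0.1 there were 43 of 14976 genes whose mean count reached 50.

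The marker lists not described above had these values. Skeletal muscle fibre markers were at 3010 CPM in sum in Stim1 cKO, against 13700 for Stim1 HT and 17700 for Stim1 Ctrl, with 5 of 5 below both controls. Of 6 bone and odontoblast markers 3 were below both controls and 2 above, with a median log2 fold change of -0.29. Of 6 neuron and glia markers 4 were above both controls and 2 below, with a median of 1.24. Of 4 macrophage and leukocyte markers 3 were below both, with a median of -1.1, and all 3 erythroid markers were below both, with a median of -1.22.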
